A study of Rattus norvegicus with 4 samples.

Results

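The 10 genes described here are the 4 Id genes (Id1, Id2, Id3 and Id4) and 6 genes of the bone morphogenetic protein (BMP) pathway, namely the ligands Bmp4 and Bmp7, the receptors Bmpr1a and Bmpr2, the inhibitory Smad6 and the signal-carrying Smad5. They were taken by gene symbol from a table of RNA-seq counts, and all 10 were found among its 17949 genes. The RNA came from primary rat Schwann cells (SCs) of the sciatic nerve. A control group was infected with Lenti-GFP, a lentivirus made from a vector carrying the green fluorescent protein AcGFP1 (n = 2), and the other group with Lenti-AS, which carries the Egr2-AS, an antisense RNA to the promoter of the myelination factor gene Egr2, in a vector with the red reporter DsRed-Express2 (n = 2). The groups therefore also differ in their reporter. All cells were kept with 10% serum, 4 μM forskolin and 5 ng/ml heregulin-β1, and were infected at 2 UFC per cell for 48 h in the presence of polybrene. The labels call the replicates biological, but whether they came from separate animals or cultures is not given in the sources used here, so p-values measure only the spread between these samples, which may be technical.

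BMP ligands bind a complex of type I and type II receptor kinases at the cell surface. The type I receptor then phosphorylates Smad1, Smad5 or Smad9, which join Smad4, enter the nucleus and switch on target genes, among which Id1, Id2 and Id3 are the best known. Id proteins have a helix-loop-helix domain but no basic DNA-binding region, so they pair with E proteins such as Tcf3, Tcf4 and Tcf12 and keep them from DNA, and in many lineages this holds back differentiation. Smad6 is itself induced by BMP signaling and damps it, while secreted antagonists such as noggin and follistatin hold ligands away from their receptors.

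The total counts were between 74024323 and 96185890 per sample. Levels are given as CPM, the count of a gene per 1000000 counts of its library after TMM scaling. The Lenti-AS samples were less alike than the Lenti-GFP samples, with 190 against 10 genes over 2-fold apart (at a mean level of 1 CPM or more), so results are also given without each of them. The SC marker S100b was at 2027 and 2052 CPM in Lenti-GFP and at 2358 and 2206 CPM in Lenti-AS 1 and 2. Of the 6 fibroblast markers, Dcn, Lum and Thy1 were at or below 0.0321 CPM in every sample, and the sum over the list was 858 and 999 CPM in Lenti-GFP, 2475 CPM in Lenti-AS 1 and 414 CPM in Lenti-AS 2, most of it from the collagen gene Col1a1. Red cell markers summed to 1983 CPM in Lenti-AS 2, nearly all of it globin, and to between 2.91 and 5.29 CPM elsewhere. Macrophage markers summed to between 3.27 and 4.31 CPM, endothelial markers (mostly Tek) to 20.6 and 20.5 CPM in Lenti-GFP and 15.8 and 15.1 CPM in Lenti-AS. Neuron markers summed to 142 and 152 CPM in Lenti-GFP and 106 and 108 CPM in Lenti-AS, nearly all of it the neurofilament gene Nefl. The Egr2-AS has no row in the table and could not be used to check the labels.

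Id1, Id2 and Id3 are the best known targets of BMP signaling, and Id4 belongs to the same family. The promoter sequences of all 4 are therefore shown. They were taken from RefSeq on the GRCr8 assembly, which is not the rn6 assembly used for the counts. Each covers 250 bases before to 50 bases after the start of the RefSeq entry. Entries matched 8 of the 10 genes, all but Bmp7 and Smad6. Capitals mark any match, on either strand, to the motifs GGCGCC (Smad1 and Smad5), GTCTG (Smad4), TGACGTCA (CRE), TGANTCA (AP-1) and CANNTG (E-box). Id1 lies at chr3:161671314-161671613 on the plus strand, Id2 at chr6:47470946-47471245 on the minus strand, Id3 at chr5:153656041-153656340 on the plus strand and Id4 at chr17:16598244-16598543 on the minus strand.
Id1: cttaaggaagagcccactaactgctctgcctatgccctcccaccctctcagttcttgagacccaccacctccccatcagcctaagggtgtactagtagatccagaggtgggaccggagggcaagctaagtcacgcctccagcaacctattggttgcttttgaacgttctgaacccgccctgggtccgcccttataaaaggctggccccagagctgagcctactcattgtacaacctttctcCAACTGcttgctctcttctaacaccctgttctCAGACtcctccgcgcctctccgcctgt
Id2: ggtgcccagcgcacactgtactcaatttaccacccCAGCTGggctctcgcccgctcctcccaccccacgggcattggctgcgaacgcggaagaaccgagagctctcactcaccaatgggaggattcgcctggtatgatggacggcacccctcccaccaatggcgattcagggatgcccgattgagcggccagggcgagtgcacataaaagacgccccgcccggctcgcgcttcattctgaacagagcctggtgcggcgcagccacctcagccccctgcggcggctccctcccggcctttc
Id3: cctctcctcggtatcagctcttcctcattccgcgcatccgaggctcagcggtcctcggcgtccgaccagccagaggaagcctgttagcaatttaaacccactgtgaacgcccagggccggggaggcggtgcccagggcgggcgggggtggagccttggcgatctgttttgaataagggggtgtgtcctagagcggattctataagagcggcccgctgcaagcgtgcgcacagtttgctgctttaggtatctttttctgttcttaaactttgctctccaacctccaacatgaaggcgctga
Id4: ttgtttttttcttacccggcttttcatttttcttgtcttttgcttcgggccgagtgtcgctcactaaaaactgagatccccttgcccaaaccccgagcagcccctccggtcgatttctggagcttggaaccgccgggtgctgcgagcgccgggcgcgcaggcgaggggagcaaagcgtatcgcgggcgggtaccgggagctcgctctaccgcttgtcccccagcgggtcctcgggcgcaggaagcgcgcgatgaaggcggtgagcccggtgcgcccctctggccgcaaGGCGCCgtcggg

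The GGCGCC motif occurred in the window of Id4 alone among the 4 Id genes, at +39 (the start is +1). It occurred in 11% of all 33469 promoter windows of this length. In Id4 the 50 bases from +1 open with ATG and read on in that frame without a stop codon. The Id4 match may therefore lie in coding sequence rather than in a promoter. Where transcription of Id4 starts was not tested. A match to GTCTG occurred in Id1, at +24, and in 50.1% of all windows. E-boxes, the sites of the E proteins that Id proteins bind, were present in Id1 (at -9) and Id2 (at -215), and in 72.1% of all windows. Id3 held a match to none of the 5 motifs, and the CRE and AP-1 motifs, found in 1.83% and 7.33% of all windows, were in none of the 4. These matches are letters in a short window and no measure of binding.

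Comparing Lenti-AS with Lenti-GFP, edgeR's quasi-likelihood test called 0 of the 10 genes, where a call needs an adjusted p below 0.05 together with a 1.3-fold change or more. Of all 12446 genes tested, 1.98% were called. DESeq2, with 5.04% of all genes called, called 1 of the 10, Id2, as higher in Lenti-AS. An unadjusted p under 0.05 was reached by 2 of the 10 genes, Id2 and Smad6, where 21.8% of all genes reached it. In 6 of the 10 the groups did not overlap (3 with Lenti-AS above and 3 with it below), where the same was true of 54.9% of all genes. The median log2 fold change of the 10 genes was 0.015, against 0.0071 over all genes tested. For a single gene, an exact permutation test of 2 samples against 2 cannot give a two-sided p under 0.333.

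Id2, whose product pairs with E proteins and can also bind the retinoblastoma protein, was the gene with the largest difference. Its level was 33.1 and 29.9 CPM in Lenti-GFP 1 and 2, and 56.9 and 39.5 CPM in Lenti-AS 1 and 2. The groups did not overlap, with 6.48 CPM separating the nearest values, but the Lenti-AS samples were themselves far apart. Their mean was 48.2 ± 12.3 CPM (SD, n = 2), against 31.5 ± 2.23 CPM (SD, n = 2) for the controls. The log2 fold change was 0.62 (standard error 0.17, 95% interval from 0.20 to 1.03), a fold of 1.53, and edgeR's adjusted p was 0.124. In DESeq2 the log2 fold change was 0.61 (adjusted p = 0.00427). Without Lenti-AS 1 the log2 fold change was 0.33, under the fold limit, and without Lenti-AS 2 it was 0.85. In these fits of 1 sample against 2, the spread comes from the Lenti-GFP samples alone. Without Lenti-GFP 1 or Lenti-GFP 2 the log2 fold change was 0.69 or 0.55. Lenti-AS 1, where Id2 was highest, was also the sample with the most Sox10, the transcription factor of SC identity, at 163 CPM against 61.2 to 77.1 CPM in the other samples. It likewise had the most Col1a1, at 2131 CPM against 290.1 to 841 CPM. The SC marker S100b and the fibroblast marker Col1a2 were also highest there, but the 2 marker lists did not follow as a whole. The fibroblast marker Pdgfra was at 4.06 CPM in Lenti-AS 1 and 4.07 CPM in Lenti-GFP 2, and some other SC markers were not highest in Lenti-AS 1. The part of the Sox10 and Col1a1 differences in the Id2 result was not tested. More cells of a type cannot be told apart from more RNA per cell in such samples.

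Id4, which unlike the other Id genes is not a uniform target of BMP signaling, had 449 and 407 CPM in Lenti-GFP and 452 and 507 CPM in Lenti-AS. The groups did not overlap, though Lenti-AS 1 was close to Lenti-GFP 1. The log2 fold change was 0.16 (standard error 0.080, 95% interval from -0.032 to 0.36, adjusted p = 0.290). Without Lenti-AS 1 it was 0.24, under the fold limit, and without Lenti-AS 2 it was 0.079. Without Lenti-GFP 1 or Lenti-GFP 2 it was 0.24 or 0.095. Id1 had 202 and 183 CPM in Lenti-GFP and 192 and 204 CPM in Lenti-AS. The 2 groups overlapped, with a log2 fold change of 0.043 (95% interval from -0.13 to 0.21, adjusted p = 0.754). Id3, the Id gene whose change was nearest to 0, had 712 and 667 CPM in Lenti-GFP and 650.4 and 716 CPM in Lenti-AS. Its groups overlapped as well, with a log2 fold change of -0.013 (95% interval from -0.18 to 0.16, adjusted p = 0.932).

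**Figure D1:**
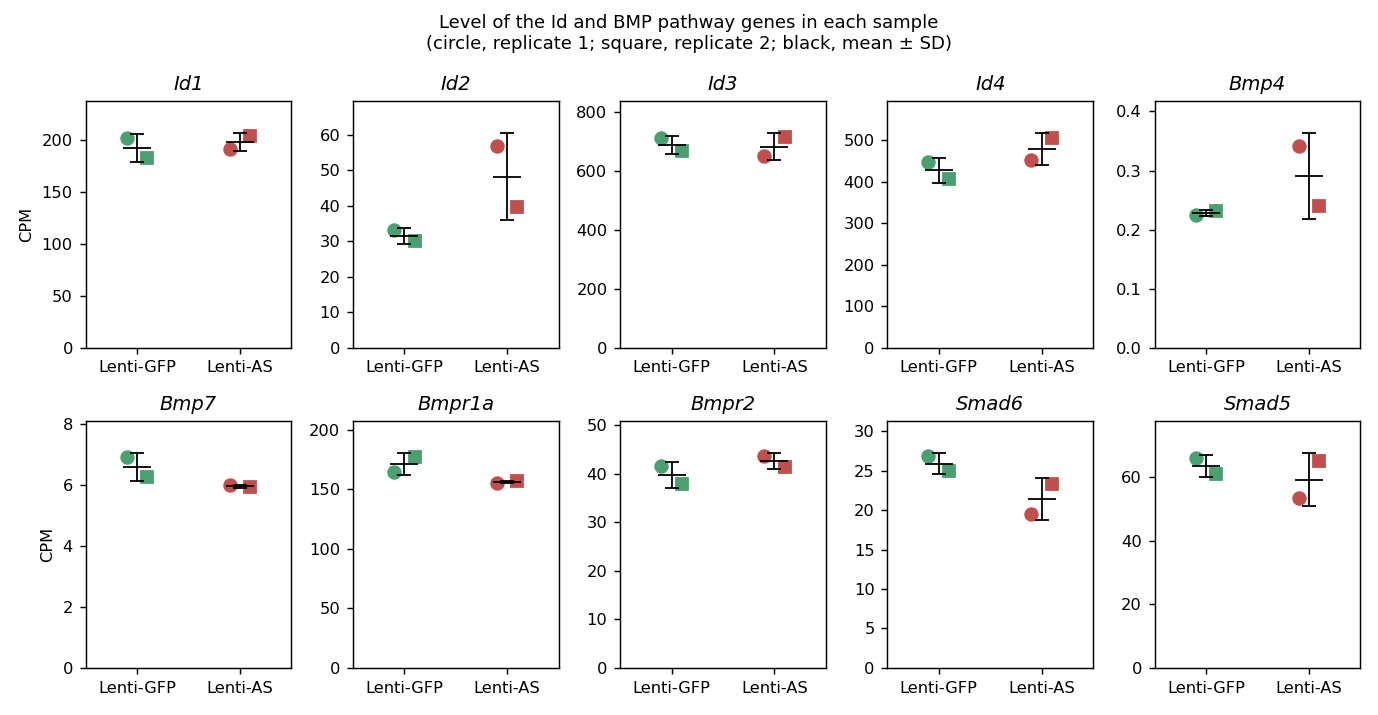
Level of the 10 genes in CPM (library sizes scaled by TMM, linear axes from 0) in each Lenti-GFP sample (green) and Lenti-AS sample (red), with circles for replicate 1, squares for replicate 2 and black marks for the mean ± SD (n = 2). Id2 lies at 56.9 CPM in Lenti-AS 1 and 39.5 CPM in Lenti-AS 2, above both Lenti-GFP samples, while Id1, Id3, Bmpr2 and Smad5 overlap between the groups.

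The ratio of Id2 to another Id gene within a library does not depend on how libraries are scaled. The Id2 counts were 0.164 and 0.164 of the Id1 counts in Lenti-GFP, and 0.297 and 0.194 of them in Lenti-AS 1 and 2. Relative to Id3 they were 0.0465 and 0.0448 in Lenti-GFP and 0.0875 and 0.0552 in Lenti-AS. Relative to Id4 they were 0.0736 and 0.0735 in Lenti-GFP and 0.126 and 0.0780 in Lenti-AS. All 3 ratios were thus higher in both Lenti-AS samples than in both Lenti-GFP samples, and highest in Lenti-AS 1. The ratio of Id4 to Id3 differed less, at 0.631 and 0.609 in Lenti-GFP and 0.695 and 0.707 in Lenti-AS. That of Id1 to Id3 was 0.283 and 0.274 in Lenti-GFP and 0.295 and 0.285 in Lenti-AS, again without overlap. The ratios of Smad6 to Smad5 and of Bmpr1a to Bmpr2 were lower in both Lenti-AS samples. Every ratio computed thus set the groups apart, so the lack of overlap is not particular to Id2. The share over all pairs of genes was not computed. Genes differ in length, so these ratios compare samples and not the amounts of the Id transcripts.

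Of the ligands, Bmp4 had few counts. It had 21 and 22 counts in the Lenti-GFP samples and 30 and 18 counts in the Lenti-AS samples, or 0.225, 0.232, 0.342 and 0.239 CPM. Its log2 fold change of 0.35 had a 95% interval from -0.60 to 1.31 (adjusted p = 0.628), which spans folds of 0.658 to 2.48. Bmp7, a ligand that acts through the same receptors, had 6.90 and 6.25 CPM in Lenti-GFP and 5.98 and 5.92 CPM in Lenti-AS. The Lenti-AS samples lay 0.267 CPM below the nearest Lenti-GFP sample, with a log2 fold change of -0.14 (95% interval from -0.46 to 0.17, adjusted p = 0.542).

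Bmpr1a, the type I receptor BMPR1A (ALK3), had 164 and 178 CPM in Lenti-GFP and 155 and 157 CPM in Lenti-AS. Lenti-AS was lower in both, by 7.80 CPM at the nearest, and the log2 fold change was -0.13 (standard error 0.059, 95% interval from -0.28 to 0.013, adjusted p = 0.258). Bmpr2, the type II receptor that activates it, had 41.6 and 37.8 CPM in Lenti-GFP and 43.7 and 41.4 CPM in Lenti-AS. These groups overlapped, with a log2 fold change of 0.10 (95% interval from -0.091 to 0.29, adjusted p = 0.485).

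Smad6, the feedback inhibitor that blocks the BMP branch of the Smad pathway, had 26.8 and 24.9 CPM in Lenti-GFP and 19.5 and 23.3 CPM in Lenti-AS. Lenti-AS was the lower group in both samples, by 1.60 CPM at the least. The means were 25.9 ± 1.34 CPM (SD, n = 2) and 21.4 ± 2.68 CPM (SD, n = 2), and the log2 fold change was -0.27 (standard error 0.10, 95% interval from -0.52 to -0.022). Its unadjusted p was 0.0377 and its adjusted p was 0.203 in edgeR's test, and DESeq2 gave an adjusted p = 0.146. Without Lenti-AS 2 the log2 fold change was -0.41, and without Lenti-AS 1 it was -0.15. Smad5, a Smad that carries the BMP signal to the nucleus, had 66.0 and 61.0 CPM in Lenti-GFP and 53.3 and 65.0 CPM in Lenti-AS. Lenti-AS 1 was the lowest sample and Lenti-AS 2 lay between the controls. The log2 fold change was -0.10 (95% interval from -0.37 to 0.17, adjusted p = 0.616), and without Lenti-AS 1 it was 0.033. Without Lenti-AS 2 it was -0.25, under the fold limit.

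**Figure D2:**
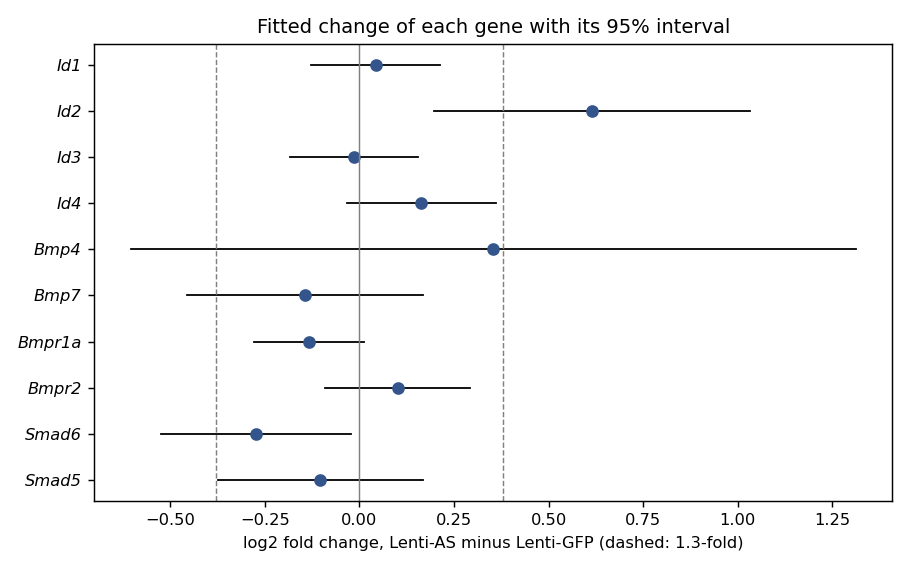
Fitted log2 fold change of Lenti-AS against Lenti-GFP for each of the 10 genes (points) with its 95% interval (lines), and the 1.3-fold limit in both directions (dashed). The intervals of Id1, Id3, Id4, Bmpr1a, Bmpr2 and Smad5 lie within 1.3-fold, those of Id2 and Smad6 leave out 0, and that of Bmp4 runs from -0.60 to 1.31.

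For 6 of the 10 genes, Id1, Id3, Id4, Bmpr1a, Bmpr2 and Smad5, the whole 95% interval of the log2 fold change lay within a 1.3-fold change in either direction. For Smad5 this held narrowly, with a lower bound of -0.374, where the limit is 0.379 in either direction. The intervals of Id2, Bmp4, Bmp7 and Smad6 reached past that limit, so these data do not bound their change at this size. The share of all genes tested whose interval lay within the limit was not computed. The plot of fits with each sample left out shows that the sign was kept in every such fit for Id2, Id4, Bmp4, Bmp7, Bmpr1a, Bmpr2 and Smad6. It turned for Id1, Id3 and Smad5. How often the sign was kept over all genes was not computed either.

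**Figure D3:**
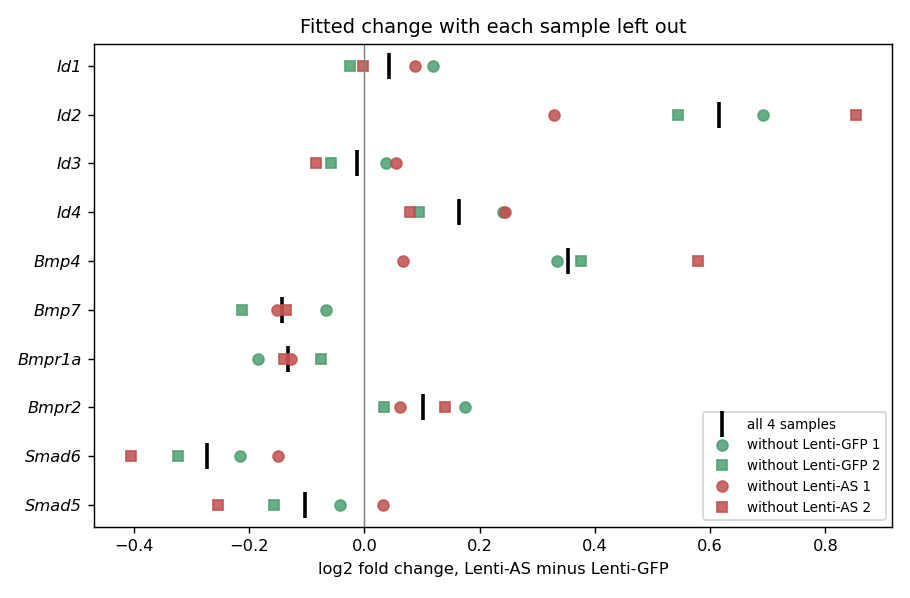
Log2 fold change of the 10 genes with all 4 samples (black bars) and with each sample left out in turn (green, without a Lenti-GFP sample, and red, without a Lenti-AS sample; circles for replicate 1 and squares for replicate 2). Id2 ranges from 0.33 without Lenti-AS 1 to 0.85 without Lenti-AS 2, and Smad6 from -0.15 to -0.41 in the same fits.

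To set these genes beside the rest of the pathway, 7 lists were written for BMP ligands, receptors and coreceptors, Smad proteins, extracellular antagonists, intracellular modulators, response genes and the partners of Id proteins. They hold 81 genes, of which 73 were in the table and 53 had enough counts to be tested. Of the 53, 3 were called by edgeR's test, Fst and Fstl1 lower and Tob1 higher in Lenti-AS, where 1.98% of all genes were called. The median log2 fold change of the 53 was 0.083, against 0.0071 over all genes. The calls were thus in the extracellular antagonists and the intracellular modulators, and no ligand, receptor, Smad, response gene or Id partner was called.

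Fst encodes follistatin, a secreted protein that binds activins and several BMPs. It fell from 41.7 and 38.5 CPM in Lenti-GFP 1 and 2 to 20.7 and 25.2 CPM in Lenti-AS 1 and 2. The controls were at least 13.4 CPM above either Lenti-AS sample. The log2 fold change was -0.81 (standard error 0.11, edgeR's adjusted p = 0.0314). Fstl1, a secreted follistatin-like glycoprotein known to bind BMP4, fell from 848 and 883 CPM to 569 and 596 CPM, a gap of 252 CPM between the nearest samples. Its log2 fold change was -0.57 (standard error 0.056, adjusted p = 0.0191), and it had the smallest p in the 7 lists. Without Lenti-GFP 1 or Lenti-GFP 2 the adjusted p was 0.297 or 0.276 for Fst and 0.200 or 0.276 for Fstl1, with log2 fold changes of -0.75, -0.86, -0.60 and -0.54. Without Lenti-AS 1 or Lenti-AS 2, both genes were still called. Nefl was lower in the same samples as Fst and Fstl1 (log2 fold change -0.46, edgeR's adjusted p = 0.0303), as was Tek (-0.42, adjusted p = 0.0559, and 0.00324 in DESeq2). The other markers of the neuron and endothelial lists reached 0.364 CPM at most in any sample. Of all genes tested, 27.2% had both Lenti-AS samples below both controls. The part of Nefl and Tek in the Fst and Fstl1 results was not tested.

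In all, 6 of the 11 genes tested from the antagonist list had both Lenti-AS samples below both controls, where 27.2% of all genes did. Another 3 had them above, as 3444 of all 12446 genes did. The genes in this and the next sentences were named after their values were seen. Fstl3, a further follistatin relative, had 1.68 and 1.89 CPM in Lenti-GFP and 0.822 and 0.678 CPM in Lenti-AS, with a log2 fold change of -1.25 that missed the threshold (adjusted p = 0.0611) and counts of 157, 179, 72 and 51. The other 3 genes of the list below both controls, Twsg1, Bmper and Crim1, were not called (adjusted p = 0.233, 0.212 and 0.538). Their gene descriptions name modulators or regulators rather than antagonists. Nbl1 (DAN), which binds BMP2 and BMP4, was higher in Lenti-AS, at 81.2 and 76.5 CPM against 61.3 and 56.5 CPM. It missed the threshold in edgeR's test (log2 fold change 0.42, adjusted p = 0.0563) and passed it in DESeq2 (adjusted p = 4.77e-05). Chrdl1 and Sostdc1 were also above both controls and were not called (adjusted p = 0.102 and 0.209). The median log2 fold change of the 11 genes tested from this list was -0.11.

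**Figure D4:**
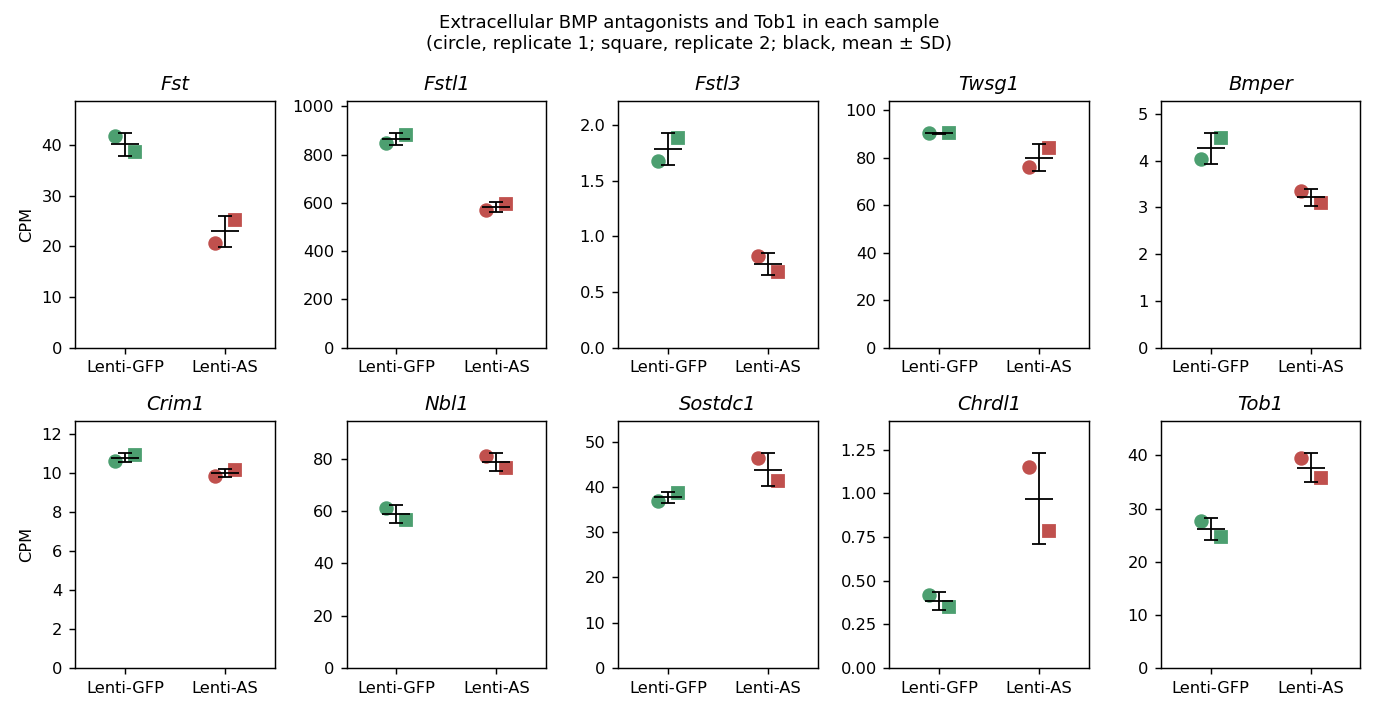
Level in CPM of 9 genes of the extracellular antagonist list and of Tob1 in each sample. Drawing is as in the plot of the 10 genes by sample (green for Lenti-GFP, red for Lenti-AS, black for mean ± SD, n = 2). The axes are linear from 0. Fst and Fstl1 lie lower in both Lenti-AS samples, at 20.7 and 25.2 CPM and at 569 and 596 CPM, while Nbl1 and Tob1 lie higher.

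Among the 14 intracellular modulators tested, Tob1, an antiproliferative protein that binds Smads and restrains BMP signaling in bone, rose from 27.7 and 24.7 CPM in Lenti-GFP to 39.6 and 35.8 CPM in Lenti-AS. The log2 fold change was 0.53 (standard error 0.089), and the adjusted p of 0.0499 lay just under the threshold. With limma-voom it was 0.0529, with the newer quasi-likelihood fit 0.0534, and without Lenti-GFP 1 or 2 it was 0.297 or 0.509. Zeb2, a Smad-binding repressor that SCs need for myelination, is also named after its values were seen, and was at 976 and 1049 CPM in Lenti-GFP and 954 and 1007 CPM in Lenti-AS (adjusted p = 0.698).

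Of the other ligands, 4 were tested. Bmp2 had 22, 10, 11 and 3 counts and Gdf7 had 18, 11, 24 and 14 counts in Lenti-GFP 1 and 2 and Lenti-AS 1 and 2 (adjusted p = 0.451 and 0.512). Of 6 further receptors and coreceptors tested, the repulsive guidance molecule Rgma, a BMP coreceptor, had 0.836 and 0.739 CPM in Lenti-GFP and 2.27 and 1.33 CPM in Lenti-AS (log2 fold change 1.20, adjusted p = 0.117). The type II receptor gene Acvr2b had 1.34 and 1.20 CPM against 2.33 and 1.36 CPM (adjusted p = 0.349). In both genes the higher value of Lenti-AS was in Lenti-AS 1, as it was for Id2.

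Smad4, the partner shared by all signal-carrying Smads, had 192 and 190 CPM in Lenti-GFP and 164 and 188 CPM in Lenti-AS (log2 fold change -0.11, adjusted p = 0.425). Smad7, the inhibitory relative of Smad6, had 14.4 and 12.0 CPM against 11.4 and 12.6 CPM (log2 fold change -0.13, adjusted p = 0.560). Of the 6 response genes tested, all 6 had a log2 fold change above 0, as 6385 of all 12446 genes did, with a median of 0.23. None was called, and in 3 of the 6 (Msx1, Hes1 and Atoh8, named after their values were seen) the groups overlapped. The largest log2 fold change of the 6, 0.65 for Msx1, rested on 4 and 18 counts in Lenti-GFP and 18 and 12 counts in Lenti-AS. Runx2, a transcription factor known from bone, had 49.4 and 51.2 CPM in Lenti-GFP and 58.8 and 58.9 CPM in Lenti-AS (log2 fold change 0.23, adjusted p = 0.137). Hey1, a repressor that responds to Notch as well as BMP, had 18.9 and 15.5 CPM against 19.2 and 21.3 CPM (adjusted p = 0.290).

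Among the 9 Id partners tested, the E protein gene Tcf4 had 47.2 and 47.7 CPM in Lenti-GFP and 35.6 and 40.7 CPM in Lenti-AS. Lenti-AS was lower in both samples, with a log2 fold change of -0.31 (adjusted p = 0.120 in edgeR's test and 0.0212 in DESeq2, where its fold change was under the limit). Ascl2, a proneural-type factor, had 8, 16, 23 and 36 counts (adjusted p = 0.183). The other E protein genes of the list, Tcf3 and Tcf12, also named after their values were seen, overlapped between the groups, with log2 fold changes of 0.26 and 0.086.

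The 3 genes nearest to Id2 in pattern over the 4 samples, by Euclidean distance between centred log2(CPM + 1) values among 7801 genes averaging 10 CPM or more, were Ubap2, Ankrd52 and Ncdn, at distances of 0.041, 0.066 and 0.072. Ubap2 had 14.8 and 12.8 CPM in Lenti-GFP and 25.7 and 17.7 CPM in Lenti-AS. Because they were chosen by this pattern, all 3 were, like Id2, highest in Lenti-AS 1 and near it in adjusted p. None was called by edgeR's test (adjusted p = 0.125, 0.126 and 0.115). With 4 samples, such likeness describes these libraries only.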

How the data were processed

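RNA-seq of 4 samples (2 Lenti-GFP and 2 Lenti-AS) was analysed. The authors deposited whole-number counts of 50 bp paired-end reads per gene, counted with featureCounts over RefSeq exons of rn6, with no normalization. The paper names hisat2 as the aligner, while the submitters' processing notes name GSNAP. Versions, the strand setting and the treatment of reads with several matches are not given in the sources used here, so counts of genes that overlap another gene are uncertain. In RefSeq names of GRCr8, Id1, Bmp4, Bmpr1a, Bmpr2 and Smad5 each overlap at least 1 other gene. Of the rows, 1 repeated the header and was dropped.

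Samples were grouped by their titles. The 12446 genes that reached 10 counts in 2 or more samples were fitted with edgeR 4.0.16 (R 4.3.3; TMM factors, default glmQLFit, glmQLFTest, no block), with Benjamini-Hochberg adjustment over all of them. Standard errors and 95% intervals come from the F statistic and its degrees of freedom. CPM values use TMM-scaled sums over tested genes. The biological coefficient of variation was 12.1%. Replicates differed by more than sampling noise (chi-square per gene of 26.0 between the Lenti-GFP and 83.1 between the Lenti-AS samples). DESeq2 1.42.0, limma 3.58.1 (voom), RLE, upper-quartile and library-total scaling, 2 other filters, a newer fit, a replicate block and leaving out each sample were alternatives. DESeq2 gave no adjusted p for 2413 genes, Bmp4 among them. The fits were tested on simulated data.

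The genes and lists were chosen with earlier results of these data known. Named genes are the 10 members, called genes of the 7 lists, in a list with none called the 2 genes with the smallest p, and the 3 genes nearest in pattern to the member with the smallest p. Those named outside this rule are marked as such or are marker genes. Protein sequences were not used here, and some SC markers are not reported here.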

Additional observations from a re-analysis of the deposited data

How the results depend on the processing

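Across 13 alternatives for each of the 10 genes, 121 of 130 log2 fold changes kept their direction and their side of the threshold. DESeq2 called 1 of the 10 genes, Id2 (log2 fold change 0.61), where edgeR called 0, and in the fits with 1 sample left out the count was 0 to 2, with Id2 and Smad6 called without Lenti-AS 2. Leaving out 1 sample gave log2 fold changes of 0.33 to 0.85 for Id2, 0.079 to 0.24 for Id4, -0.41 to -0.15 for Smad6, -0.025 to 0.12 for Id1, -0.084 to 0.054 for Id3 and -0.25 to 0.033 for Smad5. With library totals Id3 was at 0.019, a scaling under which the median over all genes went from 0.0071 to 0.039. Of the genes of the 7 lists, 3 were called, 5 with no low-count filter, and 0 to 12 with 1 sample left out. Of all genes, 163 were called higher and 83 lower, against 488 and 139 with DESeq2, and 0 to 1260 and 1 to 278 with 1 sample left out. Calls were fewest without a Lenti-GFP sample and most without a Lenti-AS sample, in fits where the lone sample is assumed to vary like the other group. Fst and Fstl1 kept their calls in 10 of 13 alternatives and Tob1 in 8 of 13.

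No label ties samples of the same number to 1 culture, and their deviations from the group means were uncorrelated (-0.018 over genes). With a replicate block, 0 of the 10 genes and 0 of the list genes were called, and 3 genes higher and 14 lower in all. Fst, Fstl1 and Tob1 lost their calls there (edgeR's adjusted p = 0.0797, 0.0664 and 0.0877). For these shifts the cause was not tested. Depth limits Bmp4, Bmp2, Gdf7 and Msx1, which had at most 30 counts in any sample.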
